A study of Mus musculus with 2 samples.

Results

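DNase-seq peaks lying just upstream of protein-coding genes were described in newborn mouse heart. Such a peak was defined by position alone: present in both libraries with an overlap of at least 1 bp, centred 1 to 5 kb upstream, by strand, of the annotated 5′ end of a protein-coding gene, outside every gene body and more than 1 kb from every annotated transcription start site (TSS). The rule found 2757 of the 111144 paired peaks on chromosomes 1 to 19, or 2.48%. The samples were 2 libraries of whole heart tissue of strain B6NCrl at postnatal day 0, which form 1 group with no treatment or control group. Their labels name the same donor and different tissue samples. The labels do not say whether they are separate animals, and the spread between them may be technical.

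DNase-seq cuts chromatin with the enzyme DNase I, and a peak marks a short stretch that the enzyme reaches more easily than its surroundings, as it does where proteins bind DNA in place of nucleosomes. A promoter is the open stretch at a gene's start. Stretches a few kilobases upstream can hold enhancers, which bind tissue-specific factors such as GATA4, MEF2 or SRF in heart muscle, or sites of CTCF, a zinc finger protein that helps to fold the genome into loops. An open peak alone does not tell these apart, nor does it show which gene, if any, it acts on, so each peak is named here by the nearest 5′ end that it lies upstream of.

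The sequences of 16 of these peaks show the kinds of site that the results turn on. Each line gives the gene, the factor whose motif is in capitals, and the 150 bp of the peak in replicate 1, read 5′ to 3′ on the strand of the gene from mm10, with the gene's strand after the position. The first 3 are the highest upstream peaks that hold the 12-base CTCF consensus.
Ndufs1, CTCF, chr1:63181156-63181305 (−): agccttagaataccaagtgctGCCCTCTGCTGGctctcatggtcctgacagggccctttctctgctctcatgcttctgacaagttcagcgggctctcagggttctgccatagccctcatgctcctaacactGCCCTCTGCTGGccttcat
Plekho2, CTCF, chr9:65581076-65581225 (−): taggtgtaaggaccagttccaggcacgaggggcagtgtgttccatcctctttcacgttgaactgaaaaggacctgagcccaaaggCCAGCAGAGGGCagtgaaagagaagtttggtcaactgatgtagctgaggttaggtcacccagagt
Clptm1, CTCF, chr7:19668996-19669145 (−): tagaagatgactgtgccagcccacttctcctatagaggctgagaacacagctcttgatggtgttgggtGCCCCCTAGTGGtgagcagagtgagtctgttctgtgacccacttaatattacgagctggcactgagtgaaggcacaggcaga
The peak upstream of Ndufs1 holds 2 matches.

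Peaks with motifs of muscle and heart factors follow, chosen from the peaks of named genes that hold each motif, by gene and not by height alone: MEF2 (muscle gene activator), GATA (bound by GATA4 in heart muscle), SRF (regulator of muscle and growth-response genes) and ERR (nuclear receptors of energy metabolism).
Rbm24, MEF2, chr13:46413716-46413865 (+): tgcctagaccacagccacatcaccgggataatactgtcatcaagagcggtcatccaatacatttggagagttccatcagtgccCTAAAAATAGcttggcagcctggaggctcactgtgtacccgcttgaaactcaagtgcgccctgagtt
Gipr, MEF2, chr7:19170316-19170465 (−): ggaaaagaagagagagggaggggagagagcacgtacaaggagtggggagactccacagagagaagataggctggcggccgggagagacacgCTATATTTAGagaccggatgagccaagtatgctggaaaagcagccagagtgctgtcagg
Bmp10, GATA, chr6:87424196-87424345 (+): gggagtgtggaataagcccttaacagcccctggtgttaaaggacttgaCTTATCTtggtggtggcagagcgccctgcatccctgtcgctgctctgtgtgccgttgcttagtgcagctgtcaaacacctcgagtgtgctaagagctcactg
Crip2, GATA, chr12:113137896-113138045 (+): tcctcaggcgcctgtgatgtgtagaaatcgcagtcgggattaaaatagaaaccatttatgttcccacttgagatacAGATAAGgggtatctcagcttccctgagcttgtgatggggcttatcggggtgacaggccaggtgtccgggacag
Nkx2-5, GATA, chr17:26849636-26849785 (−): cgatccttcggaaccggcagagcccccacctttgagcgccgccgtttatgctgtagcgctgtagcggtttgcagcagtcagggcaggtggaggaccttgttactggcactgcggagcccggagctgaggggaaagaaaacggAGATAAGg
Myh7, SRF, chr14:54996896-54997045 (−): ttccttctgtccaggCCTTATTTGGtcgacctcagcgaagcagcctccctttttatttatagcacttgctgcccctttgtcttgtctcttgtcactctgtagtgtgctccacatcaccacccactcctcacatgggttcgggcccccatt
Fabp3, ERR, chr4:130306836-130306985 (+): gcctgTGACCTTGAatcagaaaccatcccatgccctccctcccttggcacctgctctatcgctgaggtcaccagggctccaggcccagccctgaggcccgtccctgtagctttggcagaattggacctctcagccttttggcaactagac

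The last set shows motifs of widely expressed factors in peaks of high value: AP-1 (the Fos and Jun dimer), TEAD (partner of the growth regulator YAP), SP/KLF (zinc finger factors of GC-rich promoters) and E-boxes, the sites of basic helix-loop-helix factors.
Dot1l, AP-1, chr10:80751536-80751685 (+): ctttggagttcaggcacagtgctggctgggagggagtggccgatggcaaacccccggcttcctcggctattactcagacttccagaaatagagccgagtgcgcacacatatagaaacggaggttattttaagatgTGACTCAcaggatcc
Smyd2, TEAD, chr1:189924276-189924425 (−): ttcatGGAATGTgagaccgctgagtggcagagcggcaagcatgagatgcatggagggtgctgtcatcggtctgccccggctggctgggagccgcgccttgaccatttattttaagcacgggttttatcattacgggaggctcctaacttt
Fbrs, SP/KLF, chr7:127477976-127478125 (+): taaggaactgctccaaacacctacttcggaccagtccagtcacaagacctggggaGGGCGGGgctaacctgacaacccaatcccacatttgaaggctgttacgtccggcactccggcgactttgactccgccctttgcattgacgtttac
Fos, SP/KLF, chr12:85472156-85472305 (+): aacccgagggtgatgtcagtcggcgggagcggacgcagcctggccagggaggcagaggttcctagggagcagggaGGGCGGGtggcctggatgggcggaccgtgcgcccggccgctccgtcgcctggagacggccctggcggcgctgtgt
Meis1, E-box CAGCTG, chr11:19020416-19020565 (−): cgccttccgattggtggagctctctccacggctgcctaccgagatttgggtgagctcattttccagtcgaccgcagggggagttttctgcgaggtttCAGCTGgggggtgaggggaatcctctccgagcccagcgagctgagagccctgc
Mef2d, E-box CACGTG, chr3:88138376-88138525 (+): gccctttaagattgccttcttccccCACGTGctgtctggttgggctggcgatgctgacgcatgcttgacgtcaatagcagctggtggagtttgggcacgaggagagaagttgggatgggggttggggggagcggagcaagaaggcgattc
A motif match is a description of the letters and does not show that the factor was bound.

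The tissue label was checked at promoters, as a peak within 500 bp of the annotated 5′ end. Promoter peaks were found in both libraries at 8 of 10 marker genes of heart cell types: the cardiomyocyte genes Myh6 (values 110 and 100), Tnnt2 (115 and 102) and Tnni3 (59 and 60), the endothelial genes Cdh5 (58 and 66) and Pecam1 (27 and 29), the fibroblast genes Col1a1 (48 and 42) and Tcf21 (48 and 51) and the smooth muscle gene Acta2 (76 and 63). None was found at the outermost 5′ end of Actc1 or Nkx2-5. The latter had peaks of 98 and 104 at another of its annotated TSSs. No promoter peak was found at Hbb-bs (red cells), Ptprc (leukocytes), Myod1 (skeletal muscle) or Alb (liver). As a background, 54.3% of the 15029 protein-coding genes eligible for an upstream peak, defined below, had a promoter peak in both libraries. In the gene lists used below, the counts were 20 of 29 endothelial, 8 of 17 erythroid and 11 of 17 neuron genes. They were 1 of 20 macrophage, 3 of 17 skeletal muscle and 2 of 19 hepatocyte genes. Promoter peaks therefore did not set heart cell types apart from every other list. In whole tissue, open chromatin in few cells and a weaker opening in many cells cannot be told apart.

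The value of a peak, as deposited by the authors, is a whole number of at most 150 for each peak of 150 bp, with neither its unit nor a scaling stated. Over the 2757 upstream peaks the lowest and highest were 4 and 125 in replicate 1, and 2 and 125 in replicate 2. The medians were 45 in replicate 1, with an interquartile range of 33 to 61, and 42 in replicate 2, with a range of 30 to 57 (43.5 ± 2.12, mean of the medians ± SD, n = 2). The 24897 promoter peaks, centred within 500 bp of any annotated TSS, had medians of 65 and 61. Intronic peaks had medians of 42 and 37, and intergenic peaks outside both the upstream windows and the matching windows past the 3′ ends had medians of 38 and 34. The median of upstream peaks was therefore below that of promoter peaks in both libraries, by more than the spread between the libraries, and above that of other intergenic peaks. Peaks 1 to 5 kb past the 3′ end of a protein-coding gene, under the same exclusions, had the same medians as upstream peaks, 45 and 42.

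**Figure D1:**
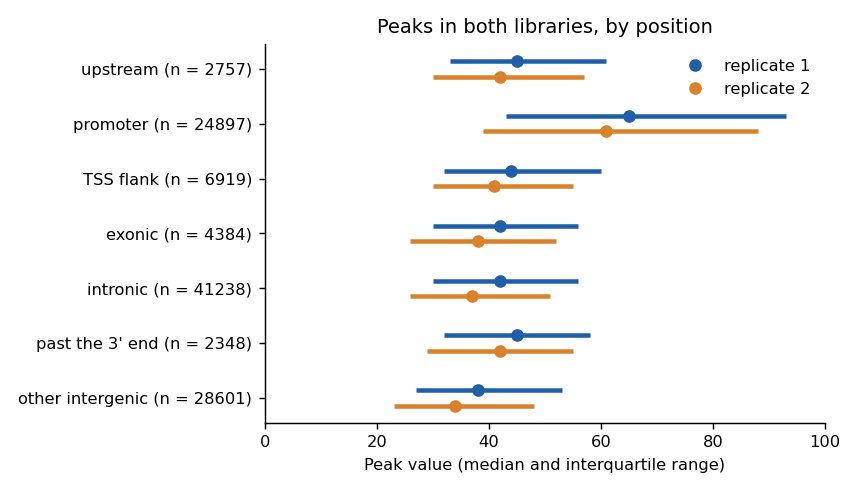
Values of the peaks found in both libraries, by position, with 1 row per class (number of peaks in brackets). Points are medians and bars interquartile ranges in replicate 1 (blue) and replicate 2 (orange); upstream peaks had medians of 45 and 42, level with peaks past the 3′ end and below promoter peaks at 65 and 61.

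At the high end of the distribution, upstream peaks lay below promoter peaks and close to the peaks that flank a TSS. Of upstream peaks, 7.36% stood at or above the 90th percentile of all peaks in both libraries, against 11.5% of all paired peaks, 35.4% of promoter peaks, 7.54% of peaks 500 bp to 1 kb from a TSS, 4.81% of peaks past the 3′ end, 4.44% of intronic and 3.9% of other intergenic peaks. Upstream peaks lay in hotspots, the longer open regions called by the authors, with a median width of 265 bp in replicate 1 and 263 bp in replicate 2. Hotspots around promoter peaks were wider, at 578 and 593 bp. Those around intronic peaks (260 and 248 bp) and other intergenic peaks (256 and 250 bp) had about the same width as those of upstream peaks. In both libraries, 98.9% of upstream peaks had their centre in a hotspot. The share was not computed for other classes, so it is not a trait particular to upstream peaks. The hotspot rarely ran on to the promoter: for 35 upstream peaks (1.27%) it came within 500 bp of the gene's 5′ end in both libraries.

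Values of the same peak in the 2 libraries were close. The Spearman correlation over the 2757 upstream peaks was 0.901, against 0.919 over the other 108387 pairs. It is given as a description, since all peaks share the same libraries and were kept for being found in both. On the log2 scale, replicate 2 minus replicate 1 had a median of -0.12, with an SD of 0.32 over peaks. Over all 111144 paired peaks the median was -0.14 and the SD 0.33, so the shift towards replicate 1 was not particular to upstream peaks. A difference of at least 2-fold was seen for 33 upstream peaks (1.2%), all of them higher in replicate 1. The share of all paired peaks with such a difference was not computed. The peaks with the largest ratios were low: the peak upstream of Pard6b, a cell polarity gene, had values of 20 and 4, and those of Rcor1, a subunit of a repressor complex, and Ncald, a calcium sensor, had 15 and 5. In the other direction, the peak upstream of Rabac1, a membrane trafficking gene, had values of 26 and 51.

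**Figure D2:**
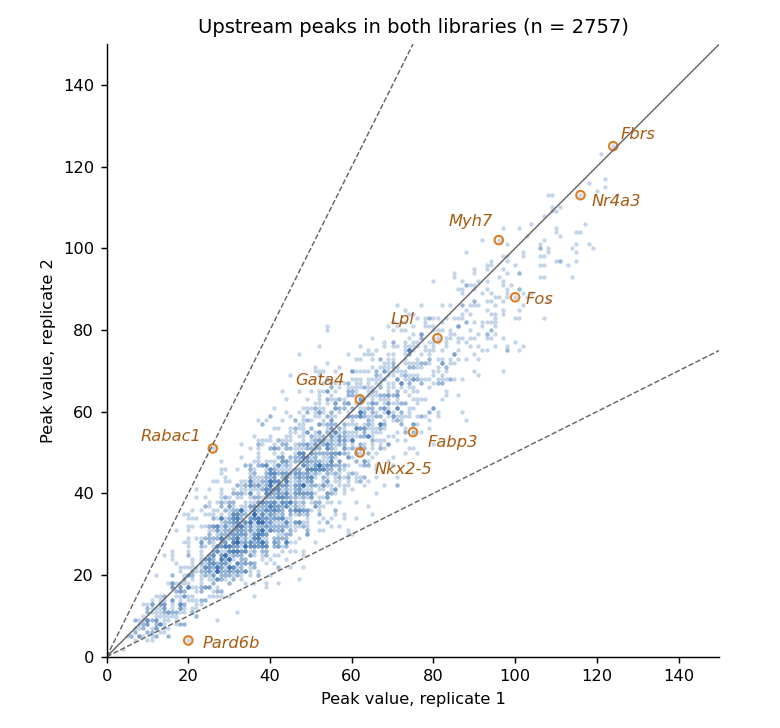
Value of each of the 2757 upstream peaks in replicate 1 (horizontal axis) and replicate 2 (vertical axis), with equality (solid line) and 2-fold differences (dashed lines). Circles mark named peaks, from Pard6b (20 and 4) to Fbrs (124 and 125); 33 peaks lie at or beyond the lower dashed line and none at or beyond the upper one.

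Without asking for overlap, the windows held 3904 peaks in replicate 1 and 3495 in replicate 2, of which 70.6% and 79.1% were paired, close to the shares of all peaks (69.2% and 78.7%). Paired peaks in the windows had medians of 44 and 42, and unpaired ones 27 and 23, so the peaks found in 1 library only were the weaker ones. Among the 2757, 53 overlapped another upstream peak, 1 example being a pair upstream of Upk3b that share most of their bases, and these are not separate sites.

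Upstream windows were not denser in peaks than the windows past the 3′ ends. Windows that met the rule covered 51.3 Mb and held 53.8 paired peaks per Mb. Sequence 1 to 5 kb past a 3′ end and not upstream of a gene held 57.1 per Mb, and sequence that was both held 74.2 per Mb. The rest of the intergenic sequence, 1172 Mb, held 24.4 per Mb, which makes the upstream windows 2.2-fold denser. With each library's own peaks, that ratio was 2.09 in replicate 1 and 2.18 in replicate 2 (2.13 ± 0.0641, SD, n = 2), and the ratio to the windows past the 3′ ends was 0.971 and 0.977.

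By distance, the density upstream was highest next to the excluded 1 kb and then level. It was 78.8 per Mb from 1 to 1.5 kb, 56.8 from 1.5 to 2 kb, and between 45.1 and 52.8 in each further step of 0.5 kb out to 5 kb. From 20 to 50 kb upstream it was still 43.7 per Mb. Past the 3′ ends there was no such first step: the density was 57.5 from 1 to 1.5 kb and between 56.1 and 63.4 out to 5 kb. Median values followed the same course, with 49 and 46 in the nearest 0.5 kb upstream and between 42.5 and 45 (replicate 1) or 40 and 43 (replicate 2) from there to 5 kb. The 146 peaks just inside the limit (nearest TSS 1000 to 1100 bp away) had medians of 50.5 and 48. The 129 just outside it (900 to 1000 bp) had 41 and 39. The latter were also limited to peaks within 1 kb upstream of a protein-coding 5′ end and in no gene's upstream window. The sets on either side of 1 kb were therefore not chosen alike. At the far limit, 54 peaks at 4900 to 5000 bp had medians of 40.5 and 36, and 35 peaks at 5000 to 5100 bp had 43 and 37.

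**Figure D3:**
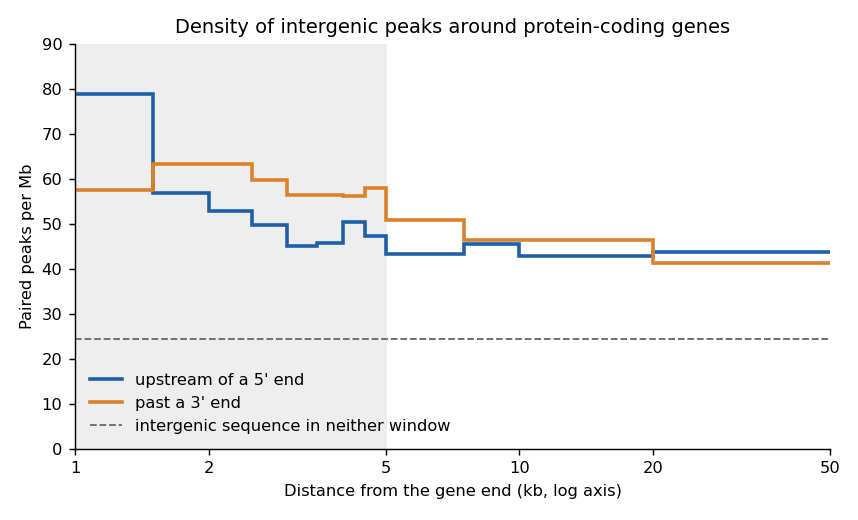
Paired peaks per Mb of eligible intergenic sequence (vertical axis) by distance from the nearest gene end (horizontal axis, kb, log scale), upstream of 5′ ends (blue) and past 3′ ends (orange); the grey band is the 1 to 5 kb window. The upstream line starts at 78.8 and stays between 42.9 and 56.8 beyond 1.5 kb, above the 24.4 per Mb of sequence in neither window (dashed), which includes the sequence beyond 5 kb.

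The peaks were assigned to 2264 genes. Of 20807 protein-coding genes on the 19 chromosomes, 15029 had at least 150 bp of sequence that met the rule and were eligible. An upstream peak was thus found at 15.1% of eligible genes, with 1 peak at 1882 genes, 2 at 299, 3 at 61, 4 at 19 and 5 or more at 3. In single libraries the share was 19.4% (replicate 1) and 17.7% (replicate 2). The median distance to the 5′ end was 2632 bp, with an interquartile range of 1665 to 3780 bp. Of the peaks, 121 (4.39%) lay upstream of more than 1 gene.

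The highest upstream peaks approached the level of strong promoters. The peak 1148 bp upstream of Fbrs, which encodes a subunit of a variant Polycomb complex, had values of 124 and 125. That of Mtfp1, a mitochondrial division gene, had 121 and 123. Peaks upstream of Tle2 (a Groucho co-repressor; 122 and 115), Foxo3 (a stress-response transcription factor; 125 and 113) and Trim8 (a ubiquitin ligase; 118 and 116) were as high. They lay above the upper quartiles of promoter peaks, 93 and 88, in both libraries.

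Several genes had clusters of upstream peaks. Tnrc18, a chromatin gene, had peaks from 1159 to 4799 bp upstream, of which the highest had 98 and 94, and 103 and 88. Kdm6b, a histone H3K27 demethylase, had peaks with values of 118 and 101 at 3976 bp, 103 and 103 at 4436 bp, 84 and 86 at 1756 bp, and 74 and 74 at 2546 bp. Id2, an inhibitor of basic helix-loop-helix factors, had its highest upstream peak at 1771 bp (100 and 83), with 5 more of 40 to 57 in replicate 1. Igf1r, the receptor of insulin-like growth factor 1, had peaks at 1006, 1356, 1806 and 2406 bp, with values of 93 and 95, 79 and 74, 75 and 77, and 43 and 39.

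Genes of the immediate-early response, which cells switch on within minutes of a stimulus, most often had an upstream peak among the 15 gene lists examined. Of 25 eligible genes in that list, 12 (48%) had one, against 15.1% of all eligible genes, and the windows held 173.2 peaks per Mb against 53.8. In single libraries 13 and 12 of the 25 had one, and with peaks more than 2 kb from every TSS the number fell to 6 genes. The share of all eligible genes was 19.4% and 17.7% in single libraries and 11% beyond 2 kb. A promoter peak was found in both libraries at all 12, and at 22 of the 25 eligible genes of the list. Over all genes the shares were 66.7% of those with an upstream peak and 54.3% of those eligible. The peak 1722 bp upstream of Nr4a3, an orphan nuclear receptor, had values of 116 and 113, and its promoter peak had 104 and 83. The peak upstream of Ier2 had 114 and 100, and that of Fos, a subunit of AP-1, had 100 and 88 beside a promoter of 100 and 95. Per1, a clock gene of the same list, had 51 and 61, and both upstream peaks of Egr1, a zinc finger factor, were low (37 and 34; 31 and 25).

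**Figure D4:**
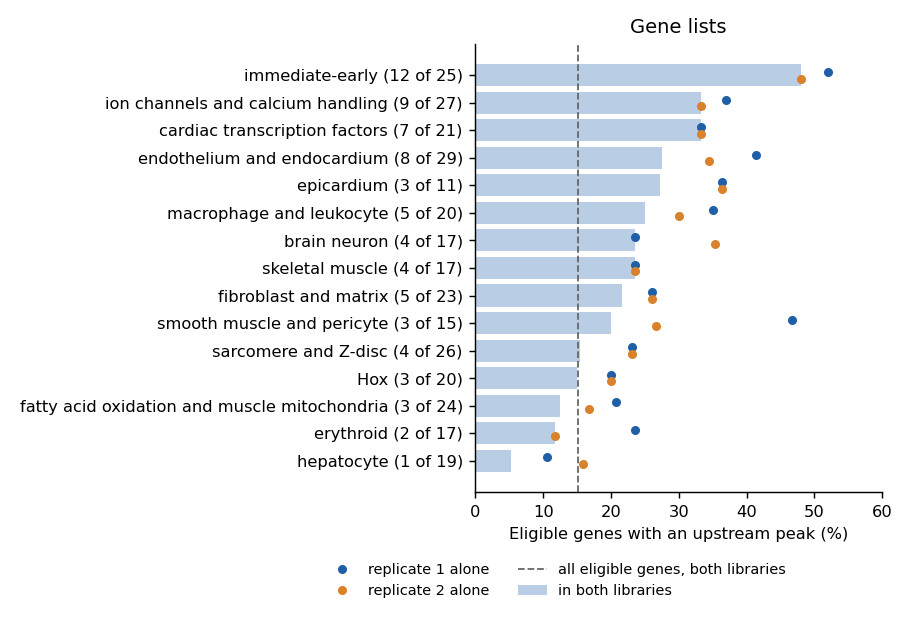
Share of eligible genes with an upstream peak (horizontal axis, %) for 15 gene lists, with the number of genes in brackets; bars are peaks in both libraries, points single libraries, and the dashed line is the 15.1% of all eligible genes. The immediate-early list stood highest at 48% and the hepatocyte list lowest at 5.26%; the points are to be read against 19.4% and 17.7%.

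Cardiac transcription factors had an upstream peak at 7 of 21 eligible genes (33.3%): Meis1, Mef2d, Myocd, Mef2a, Gata4, Nkx2-5 and Hey2. The peak upstream of Meis1, a homeobox regulator of cardiomyocyte division, had values of 108 and 113, as high as its promoter (104 and 110). Mef2d, of the MEF2 family, had 3, of which the highest had 109 and 109. Myocd, the SRF co-activator myocardin, had 70 and 71. Gata4 and Nkx2-5 are core regulators of the heart muscle lineage. The peak of Gata4 had 62 and 63, above the upper quartiles of upstream peaks (61 and 57), and that of Nkx2-5 had 62 and 50, above the upper quartile in replicate 1 only. The count of 7 was the same in each library alone. It was 2 with peaks more than 2 kb from every TSS, and 11 when only protein-coding genes were used for bodies and TSSs. The share of all eligible genes at these 2 settings was 11% and 16.5%, so the list did not stand out in the same way beyond 2 kb.

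Ion channels and calcium-handling genes had the same share, 9 of 27 (33.3%). Kcnh2, the potassium channel of the rapid delayed rectifier current, had a peak of 96 and 88 at 1127 bp. Jph2, junctophilin, which holds the sarcoplasmic reticulum close to the cell membrane, had 92 and 81, with a weaker peak of 54 and 65 at 3388 bp. Kcnj2, an inward rectifier, had 76 and 73, and Gja1, a gap junction connexin, had 71 and 68. These peaks were above the medians of 45 and 42 in both libraries. With peaks more than 2 kb from every TSS, 5 genes of the list had one, where the share of all eligible genes was 11%.

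Sarcomere genes did not share that pattern of counts: 4 of 26 eligible genes (15.4%) had an upstream peak, close to the 15.1% of all genes. A promoter peak in both libraries was found at 20 of the 26, where the share of all eligible genes was 54.3%. Among the 4 with an upstream peak were Flnc, Myh7 and Tnnt2, whose highest upstream peaks were above the medians of 45 and 42 in both libraries. Flnc, filamin C, had 111 and 97. Myh7, the beta myosin heavy chain, had 96 and 102, above its promoter (81 and 79). Tnnt2, cardiac troponin T, had 81 and 67 beside a promoter of 115 and 102. In each library alone the sarcomere share was 23.1%, against 19.4% and 17.7% of all eligible genes. The windows of the list held 7 peaks in both libraries, or 83.4 per Mb, against 53.8 in all upstream windows. For peaks in both libraries, fatty acid oxidation genes were near the background, at 3 of 24 (12.5%). They were Lpl, lipoprotein lipase (81 and 78), Fabp3, a fatty acid binding protein (75 and 55), and Acadl, an acyl-CoA dehydrogenase (35 and 40). The fatty acid count was 5 in replicate 1 alone and 0 beyond 2 kb from every TSS, where the shares of all eligible genes were 19.4% and 11%.

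Lists of endothelial, fibroblast, smooth muscle and epicardial genes had shares between these for peaks in both libraries. In single libraries the order differed. The endothelial share was 41.4% in replicate 1 and 34.5% in replicate 2 and the epicardial share 36.4% in each, above the 33.3% of cardiac transcription factors. In 1 library only, 3 more lists passed 33.3%. Their shares in replicates 1 and 2 were 46.7% and 26.7% (smooth muscle), 35% and 30% (macrophage) and 23.5% and 35.3% (neuron). Endothelial and endocardial genes had an upstream peak at 8 of 29 (27.6%), among them Nfatc1, a factor of valve formation (90 and 87), Egfl7 (88 and 77) and Nos3, endothelial nitric oxide synthase (75 and 72). Fibroblast and matrix genes had 5 of 23 (21.7%), among them Postn, periostin (58 and 61), and Col1a2, a collagen chain (44 and 32). Smooth muscle genes had 3 of 15 (20%): Cnn1 (86 and 64), Tagln (71 and 68) and Smtn (49 and 52). In replicate 1 alone the smooth muscle count was 7, against 4 in replicate 2. The fibroblast count was 11 when only protein-coding genes were used for bodies and TSSs. The share of all eligible genes was 16.5% at that setting, and 19.4% (replicate 1) and 17.7% (replicate 2) in single libraries. Epicardial genes had 3 of 11 (27.3%), with peaks of at most 61 and 44.

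The remaining lists also held genes with upstream peaks; macrophages and red cells are present in whole heart. Macrophage genes had 5 of 20 (25%), skeletal muscle and neuron genes 4 of 17 each (23.5%), erythroid genes 2 of 17 (11.8%), hepatocyte genes 1 of 19 (5.26%) and Hox genes 3 of 20 (15%). The skeletal muscle list's highest was that of Tnni2, fast skeletal troponin I (70 and 77), a gene with no promoter peak in either library. Cx3cr1, a chemokine receptor of macrophages, had 65 and 71, the highest of the macrophage list. The median values were 28 and 31 for the macrophage list and 38 and 39 for the skeletal muscle list. Both were below the 45 and 42 of all upstream peaks. In replicate 1 alone the erythroid count was 4, and the hepatocyte count was 2 in replicate 1 and 3 in replicate 2. Counts of 1 to 12 genes move by large steps of percent, and several lists share genes (Tal1 is in both the endothelial and the erythroid list).

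Genes with an upstream peak more often had an open promoter. A promoter peak in both libraries was found at 54.3% of all eligible genes, at 66.7% (1511 of 2264) of those with an upstream peak and at 52.1% of those without. Compared within tertiles of CpG content, the gap was widest in genes with few CpG dinucleotides around their 5′ end. That class of promoters includes many tissue-specific genes. In the lowest tertile of the CpG observed over expected ratio, 20.2% (117 of 579) of genes with an upstream peak had a promoter peak, against 8.71% (441 of 5062) of those without. In the middle tertile the shares were 71% and 69.5%, and in the highest tertile 93.1% and 93.3%. Genes with and without an upstream peak also differed in their mix of tertiles. An upstream peak was found at 10.3% of eligible genes in the lowest, 16.2% in the middle and 19.8% in the highest tertile. The gap over all genes therefore includes this difference in CpG content.

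The gap of 11.5 percentage points in the lowest tertile was 12.2 in replicate 1 alone and 13.2 in replicate 2 alone. Without the olfactory, vomeronasal and taste receptor genes, large families of that tertile, it was 9.72, with shares of 21.4% and 11.7%. When a peak at any annotated TSS of the gene was counted, the shares were 36.8% and 18.2%. Seen from the promoter, low-CpG genes with a promoter peak in both libraries had 76.4 upstream peaks per Mb, and those with none in either had 29.9.

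Of the upstream peaks, 757 belonged to genes with no promoter peak in either library at the annotated 5′ end. Of the 638 genes concerned, 124 (19.4%) had a peak in both libraries at another of their TSSs, among them Id2 (117 and 117), Ap5s1 (106 and 100) and Cpeb4 (44 and 33). Cpeb4, a regulator of mRNA translation, had an upstream peak of 122 and 117, higher than at that other TSS. No peak at any own TSS was listed in either library for Kdm6b, for Cd300lg (an endothelial gene, upstream peak 106 and 100), for Cdsn (a skin adhesion gene, 115 and 101) or for Bmp10 (a growth factor of the trabeculated heart muscle, 90 and 78).

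In sequence, upstream peaks were poorer in CpG than promoters. Their median GC content was 52%, with an observed over expected CpG ratio of 0.252. Promoter peaks had 62.7% and 0.716, and intronic peaks 50% and 0.214. Of upstream peaks, 6.57% were annotated as repeats over at least 50% of their length, against 33% of the 326051 peak-free tiles of 150 bp cut from the same windows, 4.42% of all paired peaks, 4.86% of intronic and 1.29% of promoter peaks. By value, the share was 20.3% in the lowest decile of upstream peaks and 1.09% in the highest.

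Motif matches were counted on both strands for 27 consensus sequences, beside the peak-free tiles, which have a lower median GC content (44%). The clearest contrast was for CTCF, found by its consensus name, with matches in 268 upstream peaks (9.72%) and in 0.0503% of tiles. Among sequences of middle GC content the shares were 11.1% and 0.0863%. The CTCF share was higher than in promoter (1.47%), intronic (4.99%) or other intergenic peaks (6.06%), and near that of peaks past the 3′ end (10.5%). Peaks with a match, like those of Ndufs1 (98 and 90), Plekho2 (93 and 92) and Clptm1 (90 and 82), had medians of 49 and 50, against 44 and 41 for the rest.

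The CTCF matches followed the value of the peak only part of the way. The share rose from 1.45% in the lowest decile of upstream peaks by value to 17.1% in the 8th decile, and was 6.16% in the highest. The consensus lay on the gene's strand in 140 peaks and on the opposite strand in 128. The match was a median of 19 bp from the peak centre, and 66.8% lay within 25 bp of it. By distance, the share was 7.31% at 1000 to 1500 bp and 6.2% at 1500 to 2000 bp. It was 8.26% at 2000 to 2500 bp and between 10.5% and 12.9% in each further step to 5000 bp. Beyond the window the share was 8.89% from 5000 to 7500 bp and 7.59% from 7500 to 10000 bp. Farther out it was 9.65% from 10000 to 20000 bp, near the 9.72% of all upstream peaks, and 7.74% from 20000 to 50000 bp.

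**Figure D5:**
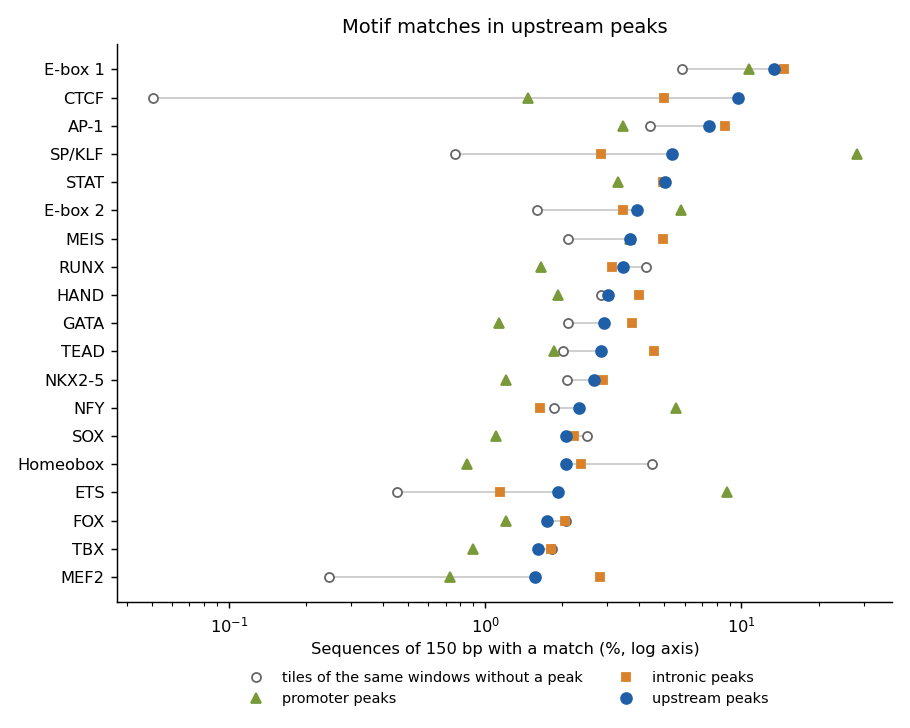
Share of 150 bp sequences with a match (horizontal axis, %, log scale) for each motif with at least 40 matching upstream peaks: upstream peaks (blue), intronic peaks (orange), promoter peaks (green) and peak-free tiles of the upstream windows (open). E-box 1 is CAGCTG and E-box 2 is CACGTG; the widest gap between upstream peaks and tiles is that of CTCF, 9.72% against 0.0503%.

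GC-rich promoter motifs were found in upstream peaks less often than in promoters. The SP/KLF motif GGGCGGG was in 5.37% of upstream peaks, 28.3% of promoter peaks, 2.84% of intronic peaks and 0.76% of tiles. Its share was 12.3% in the highest decile of upstream peaks, whose median GC content was 56%. Among sequences of middle GC content it was 2.23%, against 1.16% of tiles. The ETS motif CCGGAAG was in 1.92% of upstream and 8.75% of promoter peaks.

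Shares of muscle and tissue factor motifs differed in their order between the classes. The MEF2 motif was in 43 upstream peaks (1.56%), 0.245% of tiles and 2.81% of intronic peaks. Its highest examples were upstream of Rbm24, a muscle splicing regulator (101 and 94), and Gipr (93 and 90). The GATA motif AGATAAG was in 2.9% of upstream peaks, 2.1% of tiles and 3.74% of intronic peaks, and among sequences of middle GC content in 3.03% against 1.65% of tiles. The AP-1 motif TGANTCA was in 7.47%, against 4.41% of tiles and 8.64% of intronic peaks. The TEAD motif ACATTCC was in 2.83%, 2.01% and 4.57%. The SRF motif was in 32 upstream peaks (1.16%), the highest of them upstream of Myh7, against 0.777% of tiles and 0.958% of intronic peaks. The TBX motif was in 1.6%, against 1.82% of tiles and 1.8% of intronic peaks.

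E-boxes were frequent. CAGCTG was in 13.4% of upstream peaks and 5.87% of tiles, and CACGTG in 3.92% and 1.59%. Among sequences of middle GC content the shares were 15.4% and 8.75% for CAGCTG, and 3.64% and 2.12% for CACGTG. Other peaks held them too: CAGCTG was in 14.7% of intronic, 14.4% of other intergenic and 10.7% of promoter peaks. CACGTG was in 3.46%, 2.96% and 5.81% of these classes. For the homeobox core TAATTA the share of upstream peaks was below that of tiles, with 2.07% and 4.48%. The order turned among sequences of middle GC content, with 1.89% and 1.42%. None of the 27 motifs was in 1164 upstream peaks (42.2%), among them that of Nr4a3 with 116 and 113. The search covers exact consensus letters in the 150 bp of replicate 1 only, so it leaves out weaker sites and sites beyond the peak edge.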

How the data were processed

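DNase-seq of 2 newborn heart libraries was used as peak and hotspot lists, called per replicate from filtered alignments to mm10, per the deposited text files. The files and labels state neither the caller and its thresholds nor the read depth, and no interval from counts could be computed. The unit and normalization of the deposited peak value are not stated; it was treated as a signal, being a whole number of at most 150 per peak, and the authors' hotspot lists give the −log10 of a q-value, used here only to count hotspots at its upper limit. Peaks of both libraries were paired one to one by the largest overlap, and the midpoint of both centres was placed against GENCODE vM21. Sequence and repeats came from GRCm38.p6, the primary sequence of mm10. Python 3.11.15, numpy 2.4.6, pandas 2.3.3 and matplotlib 3.10.9 were used, and pairing, windows and motif search were tested on simulated data. Named genes were the 12 highest peaks, the 8 genes with most peaks, up to 3 a list, a fixed list of heart genes, the 6 highest without a promoter peak, the 3 largest ratios each way and the 3 highest peaks for each of several motifs; other genes were named to complete a list after their values were seen. Members and lists were chosen with earlier results of these data known. With 1 group of 2 libraries no test was made. Some named genes are not reported here.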

Additional observations from a re-analysis of the deposited data

How the results depend on the processing

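The number, median value and density of upstream peaks, the gene, hotspot, promoter and motif shares, the CpG gap and the list counts were recomputed from each library alone, with the stronger 50% of peaks, with an overlap of at least 75 bp, with protein-coding genes only as bodies and TSSs, with peaks more than 2 kb from every TSS, and with both centres in the window. The number of upstream peaks was 1661 with the stronger peaks and 1764 beyond 2 kb. Their median value was 37 to 38 leaving out 1 library and 54.5 with the stronger peaks. The density was 68.2 to 76.1 per Mb leaving out 1 library and 32.4 with the stronger peaks. The share of eligible genes with an upstream peak was 17.7% to 19.4% leaving out 1 library, 9.48% with the stronger peaks, 16.5% with protein-coding genes only and 11% beyond 2 kb. The share in a hotspot was 97.6% to 98.4% leaving out 1 library and 99.7% with the stronger peaks. The share of those genes with a promoter peak was 68.9% to 69.9% leaving out 1 library, 67.8% with protein-coding genes only and 65.3% beyond 2 kb. The gap in promoter peaks in the lowest CpG tertile was 12.2 to 13.2 percentage points leaving out 1 library, 13.4 with the stronger peaks and 10.7 beyond 2 kb. It was 9.72 without receptor genes and 18.6 with any TSS of the gene, both chosen after seeing the data. The causes were not tested. No paired analysis was possible because the 2 libraries form 1 group. Of the 15 list counts, 8 fell by over 1.5 times beyond 2 kb and 5 with the stronger peaks. Of the 27 motif shares, 16 moved by at least the SD between libraries without replicate 1. The number was 19 without replicate 2, 21 with the stronger peaks and 4 to 14 at the other settings. The CTCF share was 8.1% without replicate 1, 7.15% without replicate 2 and 12.6% with the stronger peaks, against 9.72%. Distance profiles, percentile and decile shares, GC and repeat content were not recomputed, and densities outside the upstream windows only for each library alone.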
